A study of Mus musculus with 54 samples.

Results

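MicroRNA levels were compared between 2 fractions of crypt cells from the small intestine of 4 C57BL/6J mice, cells with low Sox9-EGFP fluorescence (Low) and cells without it (Negative). The members are all 140 plain-named microRNA rows that reached 50 RPMMM on average in the 8 libraries, out of 221 rows at that level, 635 plain-named rows and 2602 rows in the deposited table. RPMMM is the authors' name for a normalized read count that sums to about 1000000 in each library. Both fractions came from the same 4 animals by the numbers in the library names, called mice 1, 2, 3 and 4 here, so each Low library has a Negative partner. All 8 libraries are labelled as chow diet, but the names of the 2 libraries of mouse 3 carry HFD (high fat diet). No other treatment or allele beside the reporter is given for them. The labels used here give no ages and no sorting gates. The whole series holds 54 samples, 30 of them small RNA libraries with a column in this table. The other small RNA libraries used here for comparison are Low cells of 4 germ-free and 4 conventionalized mice, dissected crypts (n = 4) and villi (n = 4), cells titled Lgr5-High, which another label calls Lgr4-High (n = 2), and Cd24-Low cells (n = 4), all labelled C57BL/6J. The labels do not name the mice further. Among the small RNA libraries, only the 2 fractions of a mouse are known to share an animal.

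A microRNA is a short RNA that guides a silencing complex to messenger RNAs, mainly through pairing of its seed, bases 2 to 8 from its 5′ end. It is cut from 1 arm of a hairpin precursor, and neighbouring hairpins are often cut from the same transcript. Sox9 is a transcription factor of the intestinal crypt. In Sox9-EGFP reporter mice, low fluorescence is known to enrich for stem cells at the crypt base, and its loss marks differentiated cells such as enterocytes, the absorptive cells. The microRNAs miR-192, miR-194 and miR-215 are known to be abundant in intestinal epithelium, and miR-375 and miR-7 in hormone-producing cells.

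The sequences below belong to the microRNAs on which the comparison turned, from the RefSeq table of GRCm38.p6, in which 116 of the 140 members were found. They are written 5′ to 3′ with the seed in capitals. The first pair shares a seed and traded places as its main carrier between the fractions.
miR-192-5p: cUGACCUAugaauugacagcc
miR-215-5p: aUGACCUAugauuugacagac
The miR-194 precursors lie beside those 2 and give the same 5p product, while their 3p products can be told apart.
miR-194-5p: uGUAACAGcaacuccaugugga
miR-194-1-3p: cCAGUGGAgcugcuguuacuuc
miR-194-2-3p: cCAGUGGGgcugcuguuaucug
The next 2 share a seed and differ by A10U, counted from 1 at the 5′ end with the base of miR-7a-5p first and in length at the 3′ end. They are shown because their ratio changed between the fractions.
miR-7a-5p: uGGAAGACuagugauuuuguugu
miR-7b-5p: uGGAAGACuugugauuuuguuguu
The next 3 come from neighbouring precursors on chromosome 17 and rose together in Low cells. The second of them has the let-7 seed and differs from let-7a-5p by U9G.
miR-99b-5p: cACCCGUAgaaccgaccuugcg
let-7e-5p: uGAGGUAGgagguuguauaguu
miR-125a-5p: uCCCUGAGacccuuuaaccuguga
let-7a-5p: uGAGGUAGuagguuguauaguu
miR-184-3p, miR-1224-5p and miR-92b-3p were listed at 0 in every Negative library. miR-92b-3p is set beside its relative miR-92a-3p, from which it differs by U10C and G21C and in length at the 3′ end.
miR-184-3p: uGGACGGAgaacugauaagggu
miR-1224-5p: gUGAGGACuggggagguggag
miR-92b-3p: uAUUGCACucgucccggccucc
miR-92a-3p: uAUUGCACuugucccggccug

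Low-value steps in each library gave an approximate depth of 1.75 to 4.93 (in units of 1000000 reads) in Low and 2.19 to 6.48 in Negative cells, and mouse 3 gave the shallowest library of each fraction. The lowest value above 0 was worth about 10 reads in each of them (10.1 to 10.5 steps), so a microRNA listed at 0 may have had some reads. The Low libraries were sequenced on lane 1 and the Negative libraries on lanes 4 and 5, per the library names, so lane and fraction cannot be told apart within these 8. The 2 libraries of mouse 3 carry HFD in their names and chow in the labels, which were followed. The Negative library of mouse 3 stood apart on chromosome 4. In it, 13 rows were at 0 that had at least 12 RPMMM in the other 3 Negative libraries, 12 of them named for genes of chromosome 4, and the other Negative libraries had 0 such rows. Of the 12 members from chromosome 4, 8 were at 0 there (miR-200a-3p and -5p, miR-200b-3p and -5p, miR-429-3p, miR-31-5p, miR-34a-5p and miR-872-5p), and each is given below with and without that value. In the mRNA libraries of the same Low cells, Epcam (24407 to 33924 normalized counts), Sox9 (4303 to 6705) and the stem cell gene Lgr5 (1880 to 2802) were present in all 4 mice, and the fibroblast collagen gene Col1a1 was at 0 to 9.5. The leukocyte gene Cd3e was at 0.8 to 8 and the endothelial gene Cdh5 at 0 to 6.8. Ptprc of leukocytes (24.2 to 233) and Pecam1 of endothelium (17.3 to 97.5) were above 0 in all 4 mice. The Paneth cell genes Defa24 (26003 to 290786) and Lyz1 (12756 to 111175) were also above 0 in all 4. So were the enteroendocrine genes Chga (35854 to 187989), Chgb (59729 to 252587) and Neurod1 (1326 to 7625). The goblet cell gene Muc2 (2043 to 8571) and the tuft cell gene Dclk1 (1644 to 3916) were present too. Of the enterocyte genes, Apoa4 was at 1363.5 to 2663 and Alpi at 196 to 340. Of the microRNAs taken as marks of other tissues, miR-142-3p, miR-150 and miR-223 of leukocytes, miR-145 of mesenchyme and miR-126-3p of endothelium were listed at 0 in all 8 libraries. Others were not, with miR-155-5p at 10.3 to 32.3 RPMMM in Low and 0 to 3.56 in Negative cells and miR-342-3p at 9.95 to 36.4 in Low and 0 in Negative cells. miR-142-5p reached 5.31 and miR-126-5p 32.7 in Low cells. miR-143-3p of mesenchyme was 50 to 75.2 in Low and 110 to 141 in Negative cells, and the part of such cells in the results was not tested.

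Most of the members were higher in Low cells, miR-375-3p by 123-fold and miR-7b-5p by 303-fold, while the abundant miR-215-5p was 9.64-fold lower. In the paired limma fit over all 221 rows, 80 members rose in Low relative to Negative cells and 14 fell at a Benjamini-Hochberg adjusted p under 0.05, while 46 passed in neither direction. The share of all tested rows called higher was 46.6%, and 16.3% were called lower. Values of the 4 Low libraries did not overlap those of the 4 Negative libraries in 95 of the members, against 62% of all tested rows. The median log2 difference was 1.23 over the members and 0.84 over all rows tested. Without mouse 3, whose libraries stand apart as described, 91 members were called higher and 15 lower. In that fit 117 of all 221 rows were called higher and 36 lower. Fewer cells of a type and less RNA per cell cannot be told apart in such bulk libraries.

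**Figure D1:**
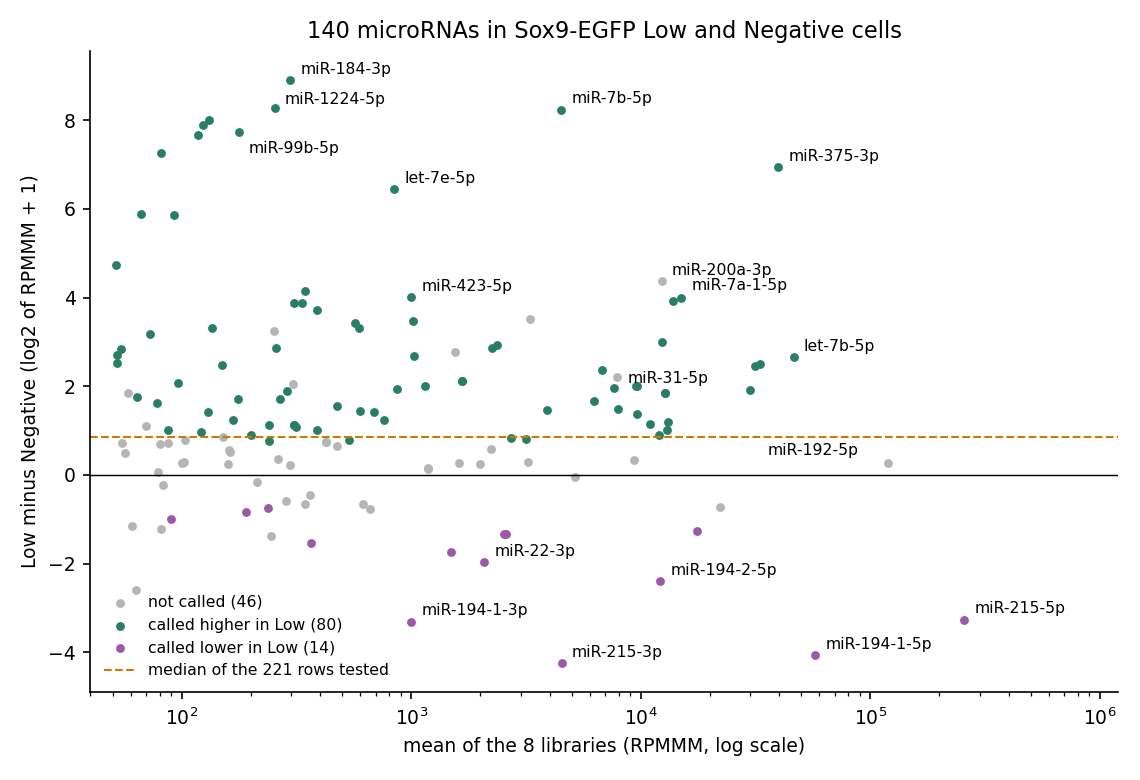
Each point is 1 of the 140 microRNAs, with its mean over the 8 libraries (RPMMM, log axis) against its Low minus Negative difference on the log2(RPMMM + 1) scale. Green points (80) were called higher and purple points (14) lower in Low cells, and the dashed line at 0.84 is the median of all 221 rows. The rows highest above the line include miR-375-3p, miR-7b-5p and miR-184-3p, and the most abundant rows far below it are miR-215-5p and miR-194-1-5p.

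The size of these counts depended on the scaling. The rows of miR-192, miR-194 and miR-215 together took 71.8% to 75.4% of the signal in Negative libraries and 17.9% to 24.1% in Low libraries, and whatever they leave is shared by all other rows. With median-of-ratios factors the median over all rows became -0.076, with 48 members called higher and 30 lower. Of all 221 rows, 66 were called higher and 64 lower. With those 3 microRNAs left out of the library totals the median became -0.70, with 34 members called higher and 45 lower. Of all 221 rows, 45 were called higher and 84 lower. Of the 94 called members, 6 took the other sign with median-of-ratios factors and 24 with the 3 microRNAs left out. All of these were called higher by 0.77 to 1.48 on the deposited scale, so differences of that size depend on the scaling, and no called member outside that range changed sign under either.

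**Figure D2:**
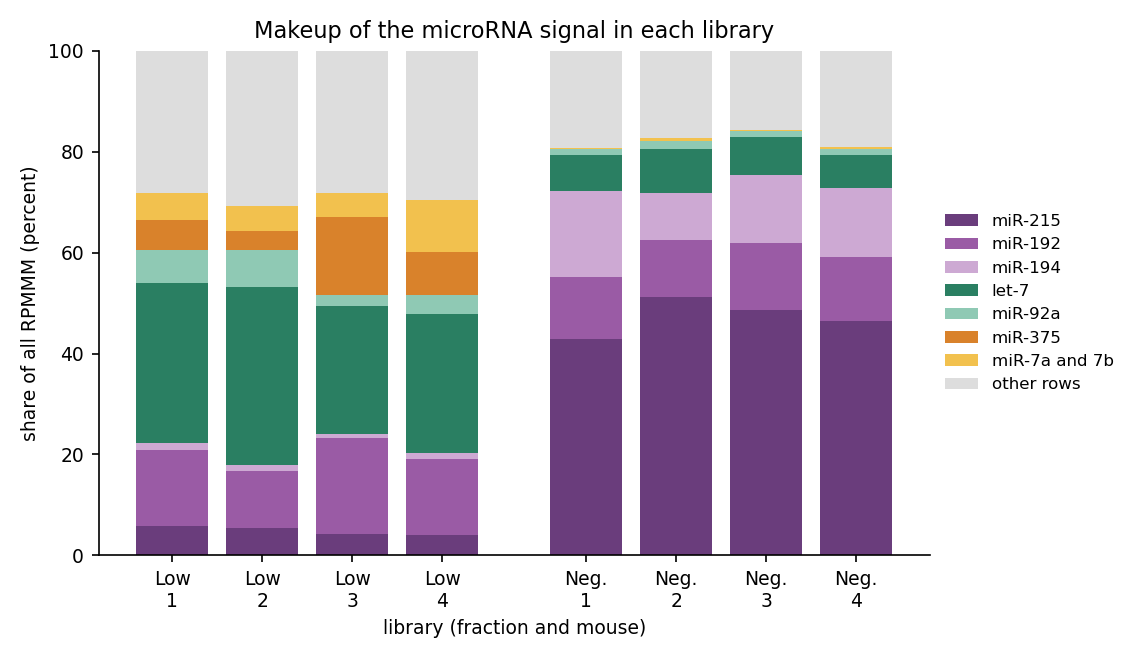
Stacked bars give the share of all RPMMM (percent) that rows of each microRNA took in each of the 8 libraries, named by fraction and mouse. Rows of miR-215 alone held 42.9% to 51.2% of each Negative library and 4.09% to 5.9% of each Low library.

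The 2 paralogous clusters that encode miR-192, miR-194 and miR-215 went apart on the deposited scale. On chromosome 1, Mir215 (chr1:185313581-185313692, plus strand, GRCm38) and Mir194-1 (chr1:185313319-185313385) overlap an exon and an intron of the antisense gene 2010103J01Rik, and all 4 of their members fell in Low cells. miR-215-5p was 58199, 53193, 42081 and 40467 RPMMM in the Low cells of mice 1, 2, 3 and 4 and 418426, 502941, 475931 and 453990 in their Negative cells. The groups did not overlap, and the log2 difference was -3.27 (SE 0.14, adjusted p = 8.74e-05), a 9.64-fold lower level on that scale. Its other arm miR-215-3p fell by 4.25 on the log2 scale, from 8211 to 9574 RPMMM in Negative to 320.4 to 645 in Low cells. miR-194-1-3p, which only this cluster encodes, was 176, 182.7, 275 and 121 RPMMM in Low and 1932, 1744, 1846 and 1687 in Negative cells, a fall of 3.31 (SE 0.26).

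On chromosome 19, Mir192 (chr19:6264844-6264932, plus strand) and Mir194-2 (chr19:6264643-6264728) overlap no other annotated gene. miR-192-5p was 132290, 95095, 168548 and 129144 RPMMM in Low and 104422, 98528, 117386 and 110636 in Negative cells. The 2 ranges overlapped, and the difference of 0.26 (SE 0.12, adjusted p = 0.111) was not called. It turned to -0.67 with median-of-ratios factors and to -1.29 with the 3 microRNAs out of the totals. miR-194-2-3p, the product specific to this cluster, was 831, 775, 491 and 635 RPMMM in Low and 326, 480, 365 and 391 in Negative cells. It was called higher by 0.79 (adjusted p = 0.0374), a direction that turned under both scalings (-0.13 and -0.76). Under each of these scalings all 7 tested rows of the 2 clusters were below 0, with 6 called lower and 0 higher. The row of miR-194-2-5p fell by 2.40, but its mature sequence is the same as that of miR-194-1-5p, which fell by 4.06, so the split of reads between these 2 rows is uncertain.

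The ratio of 2 microRNAs within a library does not depend on scaling. miR-192-5p over miR-215-5p was 2.27, 1.79, 4.01 and 3.19 in Low cells and 0.25, 0.196, 0.247 and 0.244 in Negative cells. Every Low ratio was above 1 and every Negative ratio below it (exact two-sided permutation p = 0.0286 over 70 relabelings that ignore the pairing). With labels swapped only within mice the exact permutation p was 0.125, the smallest that 4 pairs allow, and the same held for each permutation p of 0.0286 below. The 3p products of the miR-194 hairpins were likewise separated, with miR-194-2-3p over miR-194-1-3p at 4.7, 4.22, 1.78 and 5.23 in Low and 0.169, 0.276, 0.198 and 0.232 in Negative cells (exact permutation p = 0.0286). Both ratios were chosen after the values had been seen, as was that of miR-192-5p over miR-194-2-3p, both from chromosome 19. It was 122.6 to 342.8 in Low and 204.8 to 320.5 in Negative cells (exact permutation p = 0.229, and 0.25 within mice). The shared UGACCUA seed was carried mainly by miR-192-5p in Low cells (73% of the pair's mean level) and by miR-215-5p in Negative cells (81.1%), and the summed level of that seed fell by 1.68 (SE 0.13, adjusted p = 0.000113).

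**Figure D3:**
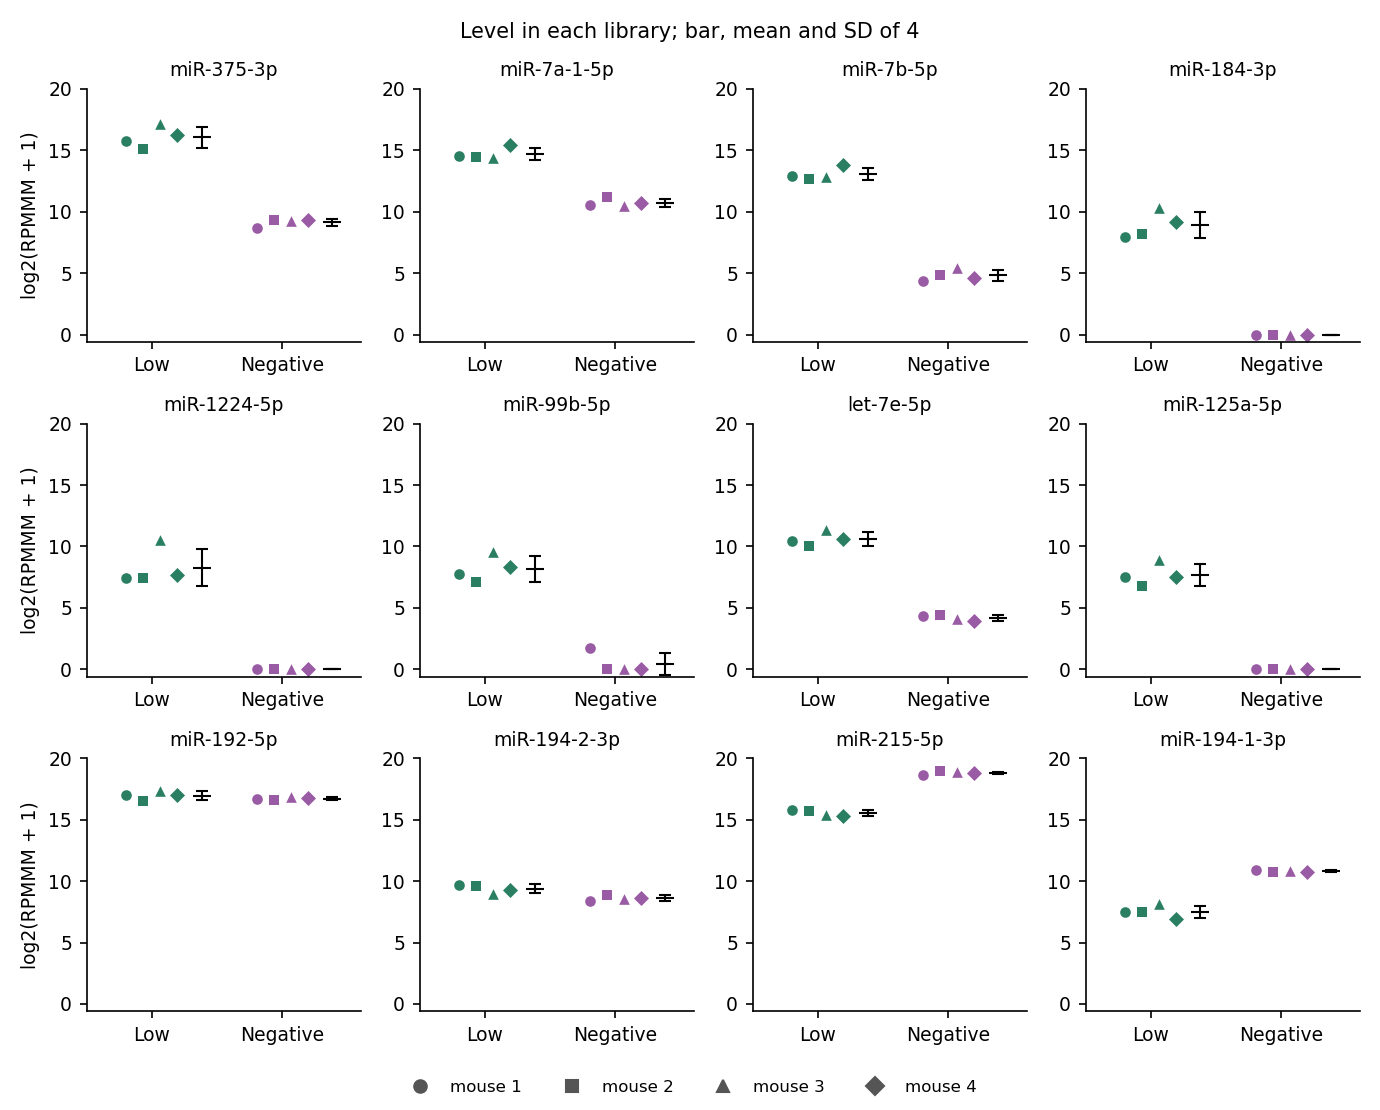
Each point is 1 library, with its level as log2(RPMMM + 1) and its shape giving the mouse, and black marks give the mean and SD of the 4 libraries of a fraction. Low and Negative libraries lie apart for miR-375-3p, miR-7a-1-5p, miR-7b-5p, miR-184-3p, miR-1224-5p, miR-99b-5p, let-7e-5p, miR-125a-5p, miR-215-5p, miR-194-1-3p and miR-194-2-3p, and they overlap for miR-192-5p.

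miR-375 (Mir375, chr1:74900658-74900721, minus strand), described in pancreatic islets and enteroendocrine cells, was the third most abundant member in Low cells and ranked 53 in Negative cells. miR-375-3p was 55680, 35358, 144628 and 78794 RPMMM in Low and 413, 624, 594 and 631 in Negative cells of mice 1, 2, 3 and 4. Every Low value was far above every Negative value. The difference was 6.94 on the log2 scale (SE 0.35, limma adjusted p = 8.74e-05), a 123-fold higher level, with an exact permutation p of 0.0286. Its 5p arm was listed at 0 in 7 of the 8 libraries and did not reach the level for testing. Mouse 3 had the highest Low level of miR-375-3p and, in its Low mRNA library, the highest level of the hormone granule gene Chga (187989 normalized counts, against 59598, 35854 and 69203 in mice 1, 2 and 4). Both measures ordered the 4 mice alike, which is given as a description of 4 animals.

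The miR-7 family, also described in endocrine cells, was called higher in each of its member rows. miR-7a-5p has 2 rows for its 2 precursors, which share reads. The row of miR-7a-1-5p was 23664, 22428, 21150.5 and 45342 RPMMM in Low and 1470, 2292, 1381 and 1724 in Negative cells, a rise of 3.99 (SE 0.26). miR-7b-5p was 7539, 6632, 7277 and 14251 RPMMM in Low but only 19.9, 27.8, 41.9 and 22.8 in Negative cells, a rise of 8.24 (SE 0.36, adjusted p = 8.74e-05). Relative to miR-7a-1-5p in the same library, miR-7b-5p was 0.319, 0.296, 0.344 and 0.314 in Low and 0.0142, 0.0126, 0.0311 and 0.0138 in Negative cells, with no overlap (exact permutation p = 0.0286). This ratio, too, was chosen after the values had been seen. Since the 2 sequences differ at 1 base, how many of the Negative miR-7b-5p reads belonged to miR-7a-5p was not tested. miR-7a-2-3p, which marks the chromosome 7 precursor, was 244.1, 185, 270.3 and 348 RPMMM in Low cells and listed at 0 in all Negative libraries.

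Low-abundance microRNAs listed at 0 in every Negative library made up 6 members. miR-184-3p, described in brain and islets, was 244.4, 297, 1253 and 584 RPMMM in the Low libraries. miR-1224-5p, from an intron of Vwa5b2, was 168, 173, 1480 and 208 there, with mouse 3 far above the other mice. miR-92b-3p (188 to 369 RPMMM), miR-125a-5p (108 to 474), miR-139-3p (104 to 265) and miR-7a-2-3p were the other 4. For each of these the highest level fell in mouse 3, except miR-7a-2-3p, for which it fell in mouse 4. No fold is given against libraries at 0, and all 6 were called (adjusted p from 8.74e-05 to 0.000251).

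The cluster of Mir99b, Mirlet7e and Mir125a on chromosome 17 (chr17:17830188-17830879, plus strand, within Spaca6) rose as a whole. Precursors this close are usually cut from 1 transcript. miR-99b-5p was 209, 140, 750 and 312 RPMMM in Low cells and 2.32, 0, 0 and 0 in Negative cells. let-7e-5p was 1358, 1049, 2661 and 1585 RPMMM in Low and 18.7, 19.8, 16.2 and 13.9 in Negative cells, a rise of 6.44 (SE 0.35), or 87.1-fold. These 3 members separated the fractions without overlap, and each had its highest level in the Low library of mouse 3.

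The let-7 family, small RNAs known to accumulate with differentiation in many tissues, was mostly higher in Low cells on the deposited scale. Its list of 20 plain-named rows held 12 above the level for testing, of which 10 were called higher and 2 were not called, with a median log2 difference of 2.00 against 0.84 over all rows. let-7b-5p, the most abundant of them, was 85593, 91369, 83666 and 59240.1 RPMMM in Low and 11503, 14506, 13383 and 10848 in Negative cells, a rise of 2.66 (SE 0.12, adjusted p = 8.74e-05). let-7g-5p was 12356, 15389, 3936 and 12018 RPMMM in Low and 8225, 8908, 7184 and 6607 in Negative cells, with a difference of 0.34 (adjusted p = 0.405). Its Low value in mouse 3 lay below every Negative value and the other 3 lay above them. Without mouse 3 all 12 were called higher. With miR-192, miR-194 and miR-215 out of the totals, 4 were called higher and 2 lower. let-7e-5p, described above, is not among these 12.

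The polycistronic miR-17/92 cluster and its paralogues, which are linked to proliferation, were split. Of 11 tested, 4 were called higher, 0 lower and 7 were not called, with a median of 0.29. The direction turned with the scaling, to 2 higher and 3 lower (median -0.63) with median-of-ratios factors and to 0 higher and 6 lower (median -1.26) with miR-192, miR-194 and miR-215 out of the totals. Within Mir17hg on chromosome 14, miR-92a-1-3p was 63015, 70641, 21445 and 37572 RPMMM in Low and 10519, 14738, 9863 and 11265 in Negative cells, a rise of 1.93 (SE 0.26, adjusted p = 0.00181). miR-17-5p from the same host transcript was 407, 501, 26.4 and 398 RPMMM in Low and 470.5, 229, 281 and 444 in Negative cells. Those ranges overlapped and the difference of -0.65 (adjusted p = 0.475) rested on mouse 3, without which it was 0.25.

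All 7 tested members of the miR-181 family were called higher, with a median of 2.12 and a range from 1.43 to 3.48. With median-of-ratios factors 5 of them were called, and 2 with the 3 abundant microRNAs out of the totals. miR-181c-5p moved most, from 141, 123, 214 and 183.2 RPMMM in Negative to 1652, 1469, 2773 and 1603 in Low cells (SE 0.22, adjusted p = 0.00013). The sensory-organ pair miR-183-5p and miR-182-5p was higher by 2.01 and 1.97. Only 1 of the pair was called with median-of-ratios factors (median 1.06) and 0 with the 3 microRNAs out of the totals (0.42 to 0.46). Both miR-10 members, hosted by Hox gene clusters, were higher as well, miR-10a-5p by 3.72 and miR-10b-5p by 3.43. miR-191-5p, among the most abundant rows of Low cells, was 15507, 21924, 27329 and 23648 RPMMM in Low and 2802, 2800.2, 2365 and 2819 in Negative cells, a rise of 3.01. Of the leukocyte list, miR-146a-5p (3.31) and miR-342-5p (5.87) were called higher, while 5 of its 10 rows, among them miR-142-3p, were at 0 in all 8 libraries. The summed level of that list was 645 to 2166 RPMMM in Low and 48.5 to 204 in Negative cells, and what part leukocytes had in it was not tested.

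The miR-200 family, which keeps cells epithelial, lies in a cluster on chromosome 6 and another on chromosome 4. From chromosome 6, miR-141-3p and miR-200c-3p were called higher by 1.46 and 1.16, signs that turned (-0.092 and -0.39) with miR-192, miR-194 and miR-215 out of the totals. From chromosome 4, miR-200a-3p was 16561, 16732, 24420 and 15106 RPMMM in Low and 11016, 5405, 0 and 9232 in Negative cells. The 0 belongs to mouse 3, and with it the difference of 4.38 was not called (adjusted p = 0.183). Without that value it was 0.98 and was called (adjusted p = 0.0195). In the same way miR-200b-3p went from 3.52 to 0.95 (adjusted p = 0.00688), miR-200b-5p from 3.25 to 1.54 (adjusted p = 0.00442), miR-429-3p from 2.77 to 0.40 and miR-200a-5p from 2.05 to -0.028, the last 2 not called. The values of that library were left out after they had been seen, and on the deposited scale only. With them kept, 0 of the 7 tested rows of the family were called under either other scaling. miR-34a-5p went from 1.11 to -0.043 and miR-872-5p from 1.85 to 0.76, neither called. miR-31-5p turned over, since it was 7155, 5641, 3636 and 7089 RPMMM in Low and 13417, 13585, 0 and 12297 in Negative cells. Its difference was 2.21 with the 0 (adjusted p = 0.451) and -0.99 without it (adjusted p = 0.00618).

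**Figure D4:**
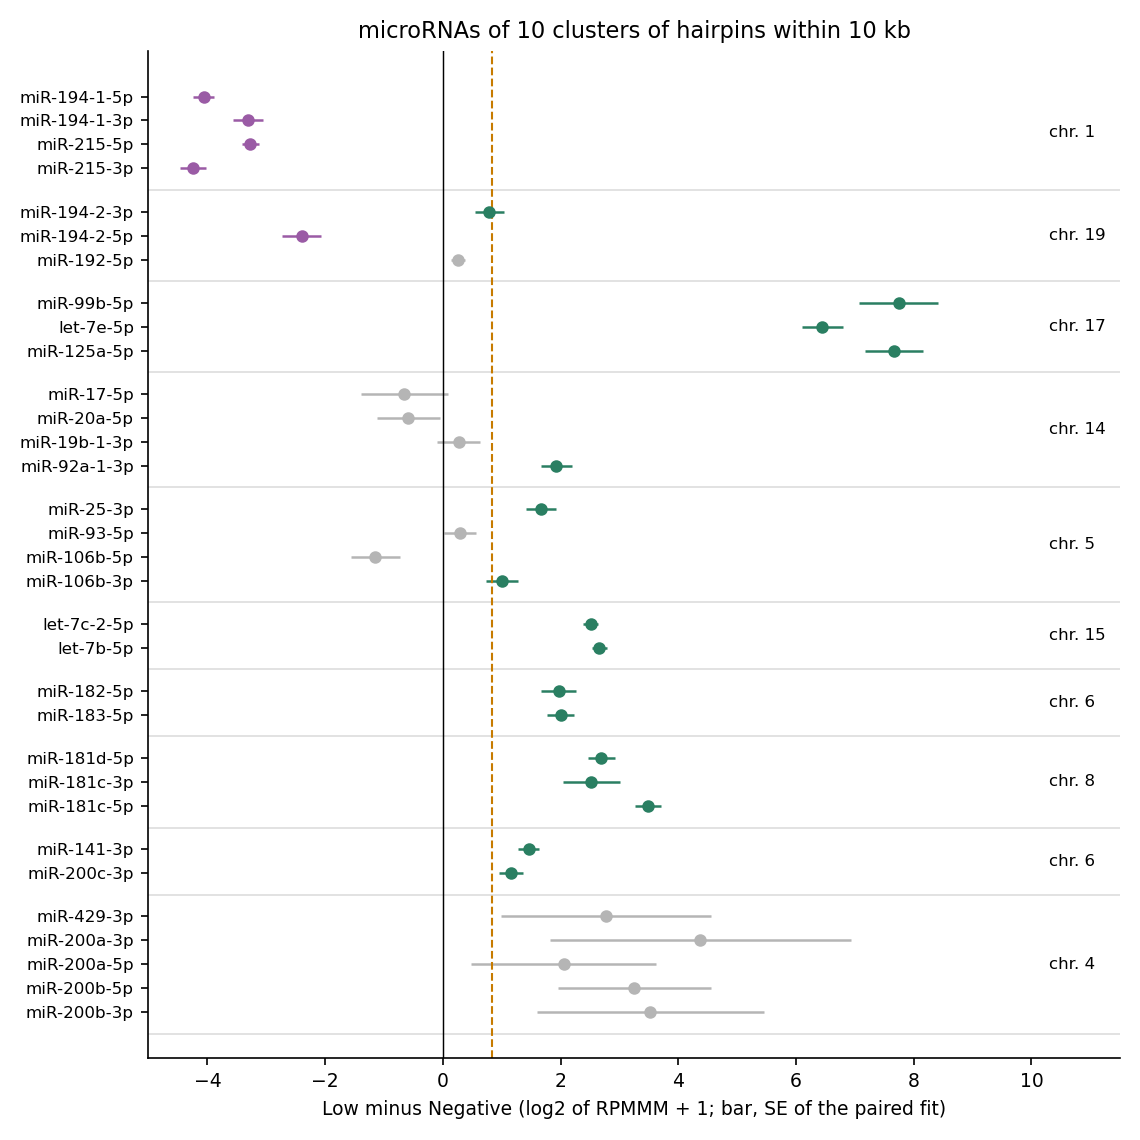
Points give the Low minus Negative difference (log2 of RPMMM + 1, bars the SE of the paired fit) for the members of 10 of the 21 clusters of hairpins within 10 kb, with green called higher, purple called lower, grey not called and the dashed line at the median of all rows, 0.84. Over all 21 clusters, 11 had every member called higher, the Mir194-1 and Mir215 cluster on chromosome 1 was the only one called lower throughout, and the Mir194-2 and Mir192 cluster on chromosome 19 held calls in both directions.

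Outside the miR-194 and miR-215 rows, 9 members fell, and by less. miR-22-3p was 763, 498, 1361 and 881 RPMMM in Low and 4284, 2679, 3027 and 3098 in Negative cells, a difference of -1.97 (SE 0.29, adjusted p = 0.0024). miR-203-3p, described as limiting proliferation in skin, fell by 1.75 (adjusted p = 0.00696), with 246.1 RPMMM in the Low library of mouse 3 and 857 to 987 in the other 3. The rows of miR-103-1-3p and miR-103-2-3p, which share 1 mature sequence, fell by 1.32 and 1.33. miR-378-3p, encoded in the metabolic coactivator gene Ppargc1b, was 11061, 14064, 6028 and 10548 RPMMM in Low and 22129, 34898, 20686 and 20522 in Negative cells, a fall of 1.26. miR-5109 (-1.53), miR-143-3p (-0.99), miR-101b-3p (-0.85) and miR-140-3p (-0.75) completed the 9. miR-143-3p is a mark of mesenchyme, of whose 12 listed rows 8 were at 0 in all libraries. miR-21-5p, among the most abundant rows of both fractions, had a difference of -0.73 that was not called (adjusted p = 0.0575).

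Levels were next summed over plain-named rows that share a seed (bases 2 to 8), where a RefSeq sequence was found. Of 68 seeds, 46 were called higher (67.6%) and 10 lower (14.7%). The let-7 seed GAGGUAG was the most abundant in Low cells at 298522 ± 44738 RPMMM (SD, n = 4), against 75830 ± 9887 in Negative cells, a rise of 1.97. The miR-7 seed GGAAGAC rose by 4.17, from a mean of 3391 to 62973 RPMMM. In Negative cells the miR-192 and miR-215 seed led with 570565 ± 35520 RPMMM (SD, n = 4), against 179754 ± 26842 in Low cells. The miR-194 seed GUAACAG, whose sum does not depend on how reads were split between its 2 rows, fell by 3.65 (SE 0.21, adjusted p = 6.16e-05). The other abundant seeds called higher were AUUGCAC of miR-25 and miR-92 (1.88), UCAAGUA of miR-26 (1.48) and AACACUG of miR-141 and miR-200a (1.67). The AACACUG sum takes in the 0 of miR-200a-3p in the Negative library of mouse 3. It was 2981 RPMMM there, against 12683, 6728 and 11357 in the Negative cells of mice 1, 2 and 4, so 1.67 is partly due to that 0. The others called lower were GCAGCAU of miR-103 (-1.26), AGCUGCC of miR-22-3p (-1.97) and CUGUCAU of miR-215-3p (-4.25).

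The balance between the 2 arms of a hairpin was compared for 41 hairpins, and 21 (51.2%) were called, 13 towards the 5p arm and 8 towards the 3p arm in Low cells. Of the 29 hairpins with both arms above 0 in all libraries, 14 were called. Towards 5p, the named hairpins were mir-25 (3.08), mir-7a-1 (3.04), let-7c-2 (2.68) and let-7a-1 (2.18), all but mir-7a-1 with an arm at 0 in at least 1 library. mir-25 was at 0.77 with a pseudocount of 10. The shift of mir-92a-1, also among the 21, went from 1.62 to -0.13 with that pseudocount. For mir-125a, which is among the 21, both arms were at 0 in all Negative libraries, so no shift was measured. Towards 3p, mir-194-2 was at -3.19, and at -3.17 with a pseudocount of 10. The 3p arms of mir-139 (-4.19) and mir-7a-2 (-4.08) were at 0 in all Negative libraries, and these values became -2.63 and -0.81 with that pseudocount. The 5p reads of mir-194-2, mir-7a-1, mir-7a-2, let-7a-1 and let-7c-2 are shared with a second precursor, as are the 3p reads of mir-92a-1. The shifts of mir-7a-1 and mir-7a-2 therefore rest on the same 5p sequence. The 3p rows of let-7a-1 and let-7c-2 had nearly the same means (15.4 RPMMM for both in Low, 10.2 and 10.1 in Negative cells), so these shifts are not independent. mir-423 was singled out after its values had been seen. Its arms both rose, and the 5p arm held 51.6%, 56.6%, 65.1% and 55.9% in Low and at most 26.9% in Negative cells, a shift of 2.06. For mir-106b the 5p share went the other way, at 6.74%, 4.84%, 4.97% and 10.5% in Low and 31.5%, 12.0%, 26.6% and 29.9% in Negative cells, a shift of -2.16. For mir-151 it was 4.15% to 10.6% in Low and 15.5% to 34.1% in Negative cells. None of these shares overlapped between the fractions.

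The difference moved with base composition. Among the 116 members with a sequence, the 18 with a GC content over 55% had a median difference of 2.23, the 78 between 40% and 55% had 1.33, and the 20 under 40% had 0.68. Across these microRNAs, which share libraries and are no replicates, Pearson's r was 0.29 and Spearman's rho 0.24. The part of base composition in the differences was not tested.

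Some Low libraries of other mice carry the lane numbers of the Negative libraries in their names, 2 germ-free on lane 4 and 2 conventionalized on lane 5. These were set against the same 4 Negative libraries with lane as a block. The names give no sequencing run, so a shared run is not known. Microbiota and lane coincide among these Low libraries and cannot be told apart. In that fit over 221 rows, 52% were called higher and 14.5% lower, and of 142 plain-named rows 91 were higher and 9 lower. The 2 comparisons share their Negative libraries. miR-375-3p differed by 7.51 there and by 6.94 in the paired comparison, miR-7b-5p by 8.604 and 8.24, let-7e-5p by 6.85 and 6.44, and miR-215-5p by -3.38 and -3.27. Other named members had smaller differences there, with miR-10a-5p at 2.65 against 3.72, miR-10b-5p at 2.01 against 3.43, miR-191-5p at 2.23 against 3.01, miR-146a-5p at 1.66 against 3.31 and miR-92a-1-3p at 1.09 against 1.93. miR-203-3p was at -0.73 (adjusted p = 0.15) against -1.75 and was not called there.

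Dissected crypts and villi were compared in the same table. Crypts exceeded villi for 36 members and villi exceeded crypts for 10, against 21.3% and 12.2% of all 221 rows. The Low minus Negative difference itself differed from crypt minus villi for 76 of the 140 (limma interaction, adjusted p under 0.05), being larger for 64 and smaller for 12. Over all rows it was larger for 38.5% and smaller for 12.7%. These are signed differences, so a deeper fall in the sort counts as smaller. The fit used group means without the animal block. On the deposited scale the member median was 1.23 in the sort and 0.25 in crypt minus villi, and no other scaling is given for these counts. miR-375-3p was 11339 to 21282 RPMMM in crypts and 4746 to 7531 in villi, a difference of 1.42 that was smaller than that of the sort by 5.53 (SE 0.48, adjusted p = 2.03e-07). Each villus library had more miR-375-3p than each Negative library. miR-7b-5p was 51.2 to 106 RPMMM in crypts and 71.2 to 147 in villi, far from its level in Low cells. miR-215-5p was 36470 to 78082 RPMMM in crypts and 173365 to 309771 in villi, a difference of -2.22.

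Across all sorted groups, miR-375-3p was highest in Low cells of germ-free mice, at 106618 to 198437 RPMMM. It was 31198 to 86006 in Low cells of conventionalized mice, 15047 to 35422 in Cd24-Low cells and 18945 and 20943 in the 2 Lgr5-High libraries. The germ-free, conventionalized and Cd24-Low ranges overlap that of the 4 Low libraries compared here, the last only by its highest value. miR-7b-5p separated the groups otherwise, with 53 and 53.4 RPMMM in Lgr5-High cells. Over the 22 libraries outside the comparison, the members whose log2 levels followed miR-375-3p most closely were miR-7a-2-3p (Pearson's r = 0.94), miR-1224-5p (0.91), miR-7a-2-5p and miR-7a-1-5p (both 0.87) and miR-7b-5p (0.85), given as a description over libraries of unlike groups.

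**Figure D5:**
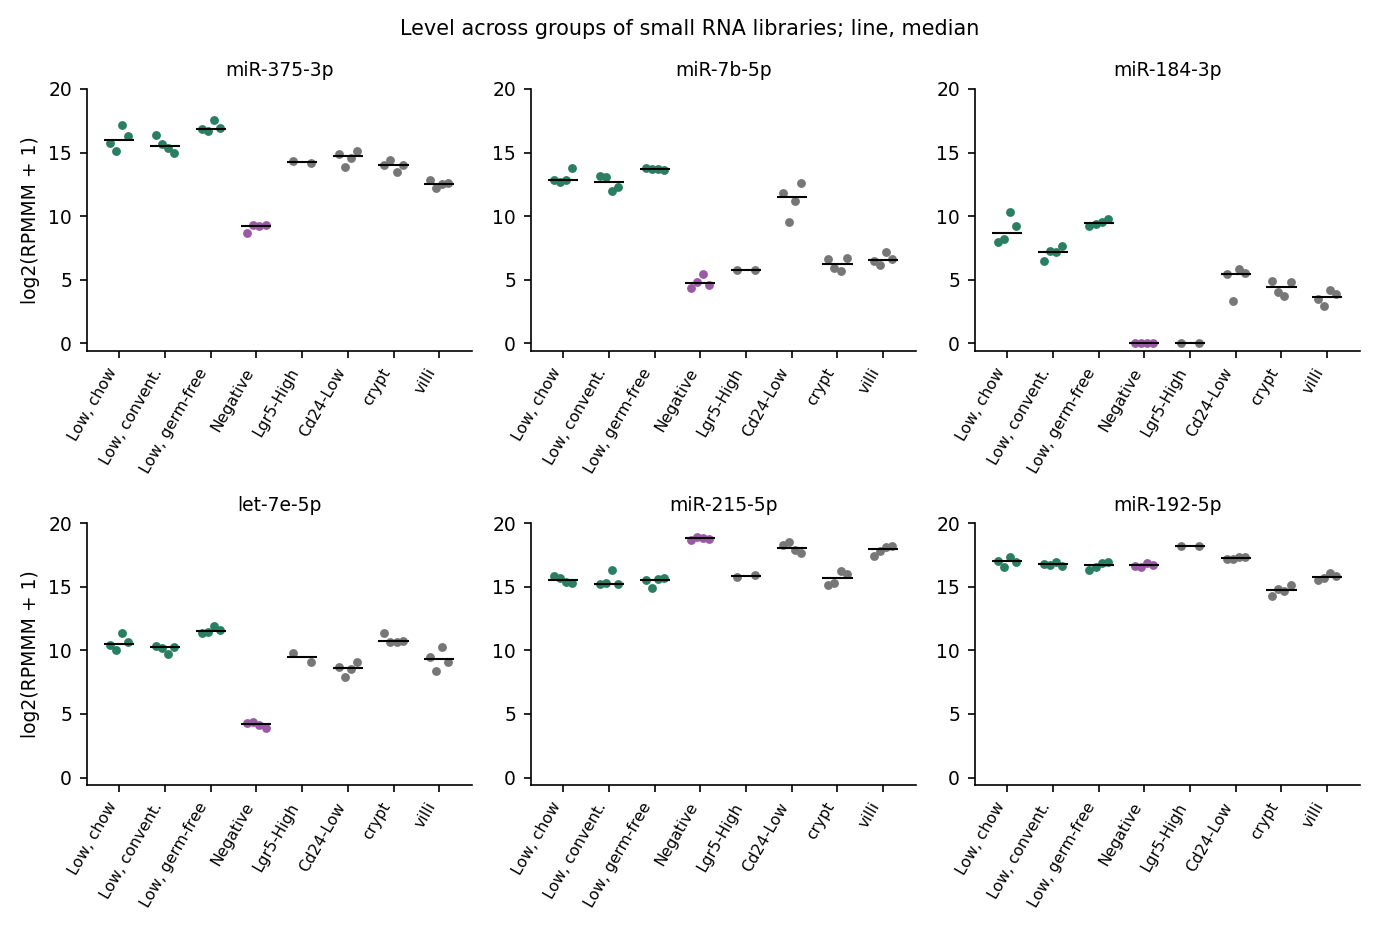
Each point is 1 library and each line the median of its group, with levels as log2(RPMMM + 1) for miR-375-3p, miR-7b-5p, miR-184-3p, let-7e-5p, miR-215-5p and miR-192-5p in 8 groups of small RNA libraries (green Low, purple Negative, grey others). miR-375-3p is lowest in the 4 Negative libraries (413 to 631 RPMMM), and miR-215-5p is highest there (418426 to 502941 RPMMM).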

How the data were processed

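Small RNA libraries had been made with the TriLink CleanTag kit, per the labels' protocols. The authors deposited 1 table of microRNA levels in RPM (headed RPMMM), with 1 row per microRNA and further rows whose names carry a suffix, which were tested but are not members. No source used here names the aligner or counter of this table. Normalized counts of mRNA, a signal the authors had scaled per library, came from a second deposited table, and mm10, STAR, Salmon and DESeq2 stand in the submitters' processing notes. Of the microRNA columns, 4 matched no sample and were not used. Rows of identical mature sequence share reads and are uncertain as to precursor.

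Rows averaging 50 RPMMM or more in these 8 libraries were fitted as log2(RPMMM + 1) with limma 3.58.1 in R 4.3.3 (trended variance, animal as a block), with Benjamini-Hochberg adjustment over 221 rows and a threshold of 0.05. A fold change is on that scale and understates low rows. Seed sums were fitted likewise. Arm balance was fitted with the same block but no variance trend, for hairpins with both arms at a mean of at least 10 RPMMM. Both were adjusted over their own sets. The scripts were checked on simulated data. Column names give the same animal number in both fractions, hence the block. The deviations of the 2 libraries of an animal from their group means correlated at 0.15, 0.10, 0.20 and -0.20, and those of libraries of different animals at -0.29 to 0.34, a range that covers the same-animal values. The pairing comes from the names. Whole reads could not be recovered from the values (73.6% to 88.7% whole within 0.1 of a step), so no count test was run. The p-values of the paired fits measure how the Low minus Negative difference varied between animals, with variance information shared across rows. Depth was estimated from the same steps, and values were listed at 0 below about 10 steps.

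The members and lists were chosen with earlier results of these data known. Named were the 10 called members with the largest differences in each direction without overlap, the 10 most abundant of each fraction, list members, the 5 largest arm shifts and the 5 most abundant called seeds in each direction, and both miR-375 arms. The members just inside the level of 50 were miR-676-3p (51.6 RPMMM), miR-148a-5p (52.3) and miR-181c-3p (52.4), and those just outside were miR-27b-5p (48.1), miR-1843-5p (48) and miR-140-5p (47.2). Precursor positions are from GENCODE release 21 on GRCm38.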

Additional observations from a re-analysis of the deposited data

Results flagged for a closer look

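In 98 groups of 4 libraries, 1 value lay far from the other 3 in 16, by the gap to its neighbour over the range (Dixon's ratio, on RPMMM). The cutoff gives about 1 in 20 for independent groups of normal values. RPMMM values need not be normal and some of these rows share reads, so 16 cannot be set against that rate. Mouse 3, whose library names carry HFD, held 8 of the 16, and the part of diet was not tested. Its Low library was far above the others for miR-1224-5p (1480 RPMMM against 168 to 208), miR-92b-3p (369 against 188 to 216) and miR-181c-5p (2773 against 1469 to 1652). It was far below them for the shared reads of miR-103-1-3p (805 against 1692 to 1797) and miR-103-2-3p (817 against 1714 to 1824). Its Negative library was low for miR-191-5p (2365 against 2800.2 to 2819) and was listed at 0 for miR-31-5p and miR-200b-5p, both from chromosome 4. The Low library of mouse 4 was high for the whole miR-7 seed, with miR-7b-5p at 14251 RPMMM against 6632 to 7539, miR-7a-1-5p at 45342 against 21150.5 to 23664 and miR-7a-2-5p at 42079 against 18854 to 21837. In Negative cells of mouse 1, miR-375-3p was low (413 against 594 to 631), miR-215-3p high (9574 against 8211 to 8244), and miR-99b-5p above 0 (2.32). In Negative cells of mouse 2, miR-378-3p (34898 against 20522 to 22129) and miR-182-5p (4289 against 2606 to 2836) were high.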

How the results depend on the processing

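Against 80 members called higher and 14 lower, median-of-ratios factors gave 48 and 30, and totals without miR-192, miR-194 and miR-215 gave 34 and 45. Without a filter on low values 127 plain-named rows were called higher, and 9 were called lower against Low cells of other mice on lanes 4 and 5. Leaving out 1 animal gave 66 to 91 higher and 10 to 17 lower. Over all 221 rows it gave 86 to 117 higher and 22 to 36 lower. Seeds called higher numbered 26 with median-of-ratios factors and 87 without a filter, against 46, and 41 to 49 without 1 animal. Arm shifts numbered 10 of the 20 hairpins whose arms both had a mean of 50 (50%), against 21 of 41 (51.2%), and 13 to 20 without 1 animal, with 13 when mouse 4 was left out. Signs that turned with median-of-ratios factors were those of miR-192-5p (-0.67), let-7g-5p (-0.58) and miR-194-2-3p (-0.13). With the 3 microRNAs out of the totals they were miR-192-5p (-1.29), let-7g-5p (-1.21), miR-194-2-3p (-0.76), miR-141-3p (-0.092) and miR-200c-3p (-0.39). Without 1 animal, miR-31-5p ranged from -0.99 to 3.38 and miR-17-5p from -1.24 to 0.25. miR-31-5p was at -0.99 without mouse 3 or without its chromosome 4 values, an alternative chosen after seeing the data. miR-17-5p turned to 0.25 without mouse 3 and to 0.50 against Low cells of other mice. The causes of these changes were not tested. Leaving the animal block out of the paired fit gave 80 higher and 16 lower members, 20 arm shifts, and 44 higher and 10 lower seeds. Of all 221 rows, 104 were then called higher and 37 lower. The tests on recovered reads with edgeR and DESeq2 were not run. Shallow libraries, most of all both of mouse 3, limit what a listed 0 shows.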
